A study of Mus musculus with 12 samples.

Results

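The genes described here are the xenobiotic cytochrome P450 genes of the mouse liver, namely the listed members of families 1, 2 and 3 together with Cyp4a12a and Cyp4a12b. Their electron donor Por and the receptors Ahr, Nr1i2 and Nr1i3 were added. Members are given by gene name. Of 52 symbols listed, 51 had an Ensembl ID in the deposited table of 54232 genes, and 47 of those were P450 genes. Cyp2d13 is not a symbol of the GENCODE M21 annotation used for naming.

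Male C57BL6/J mice went through the intragastric alcohol-associated steatohepatitis (ASH) model, in which liquid diet is given into the stomach and solid Western diet makes up the rest of the calories. The pair-fed (PF) group of 5 mice received an isocaloric high-fat liquid diet for 8 weeks. The alcohol-fed (AF) group of 7 mice received high-fat liquid diet with alcohol, raised to 27 g/kg/day by the end of the 8 weeks, with binges of 5 g/kg once a week. Age is given as 8 weeks in the labels of both groups, which have no genetic change, and each library is RNA of the whole liver of 1 mouse.

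Cytochrome P450 enzymes sit in the endoplasmic reticulum of hepatocytes and use heme, molecular oxygen and electrons passed on by the P450 reductase to oxidize drugs, toxins, steroids and fatty acids. Many are inducible, because receptors that bind foreign compounds (AHR, the pregnane X receptor PXR and the constitutive androstane receptor CAR) switch on their genes. In mouse liver a number of them are also sex-dependent, with some made mainly by females and others mainly by males.

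Libraries held between 24129900 and 30578639 counts on genes, and the P450 members took 1.77 to 2.27% of them in PF and 1.95 to 5.55% in AF livers. Values are CPM, counts brought to a common library size with TMM factors, and a count of 0 allows up to 3 counts, or 0.118 to 0.148 CPM in PF and 0.0778 to 0.115 CPM in AF livers. These limits cover counting error only. Markers of hepatocytes summed to 104300.3 to 148316 CPM in PF and 63738 to 116340.4 CPM in AF livers, with 2 of 7 lower in AF. Stellate cell markers were higher in 5 of 5 genes, bile duct markers in 4 of 4 and Kupffer cell markers in 4 of 5. Of all genes, 22.0% were higher and 17.8% lower. Recruited macrophage markers were higher in 1 of 5 and sinusoidal endothelial markers in 1 of 4. No neutrophil, T cell or B cell marker was higher and 1 of 4 T cell markers was lower. No marker list was at 0 in all livers. In whole liver, fewer cells of a type and less RNA per cell cannot be told apart, and the part of these shifts in the P450 results was not tested.

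Of the 51 members, 43 had enough counts to be tested between AF and PF with edgeR's quasi-likelihood test, and 12 of them were higher and 9 lower in AF at an adjusted p of 0.05. These counts are 27.9% and 20.9% of the members tested, beside 22.0% and 17.8% of all 14168 genes tested. Of the 12 higher, Cyp2a4, Cyp2b13, Cyp2c40 and Cyp3a44 had at most 1.02 CPM in PF livers and passed the filter through their AF values. Cyp2b9, with 0.295 CPM in PF replicate 1, also needed its AF values to pass. The share higher is thus no support for a direction of the members. Median log2 fold change was 0.17 over the members and 0.04 over all genes. The members' median was -0.168 with a block for the replicate number, -0.000751 without AF replicate 7 and 0.451 on library totals without scaling factors. Its sign thus depended on the setting. AF replicates 6 and 7 have no PF liver of the same number, so the block estimate rests on the other livers. In 6 members every AF liver lay above every PF liver and in 8 every AF liver lay below, beside 8.2% and 9.49% of all genes. By subfamily, all 4 Cyp2a and all 3 Cyp2b genes were higher, and all 3 Cyp2j and both Cyp4a12 genes were lower. Of the Cyp2c genes 2 were higher and 1 lower, of the Cyp3a genes 1 was higher and 4 did not pass, and the tested Cyp2d genes did not pass the threshold.

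**Figure D1:**
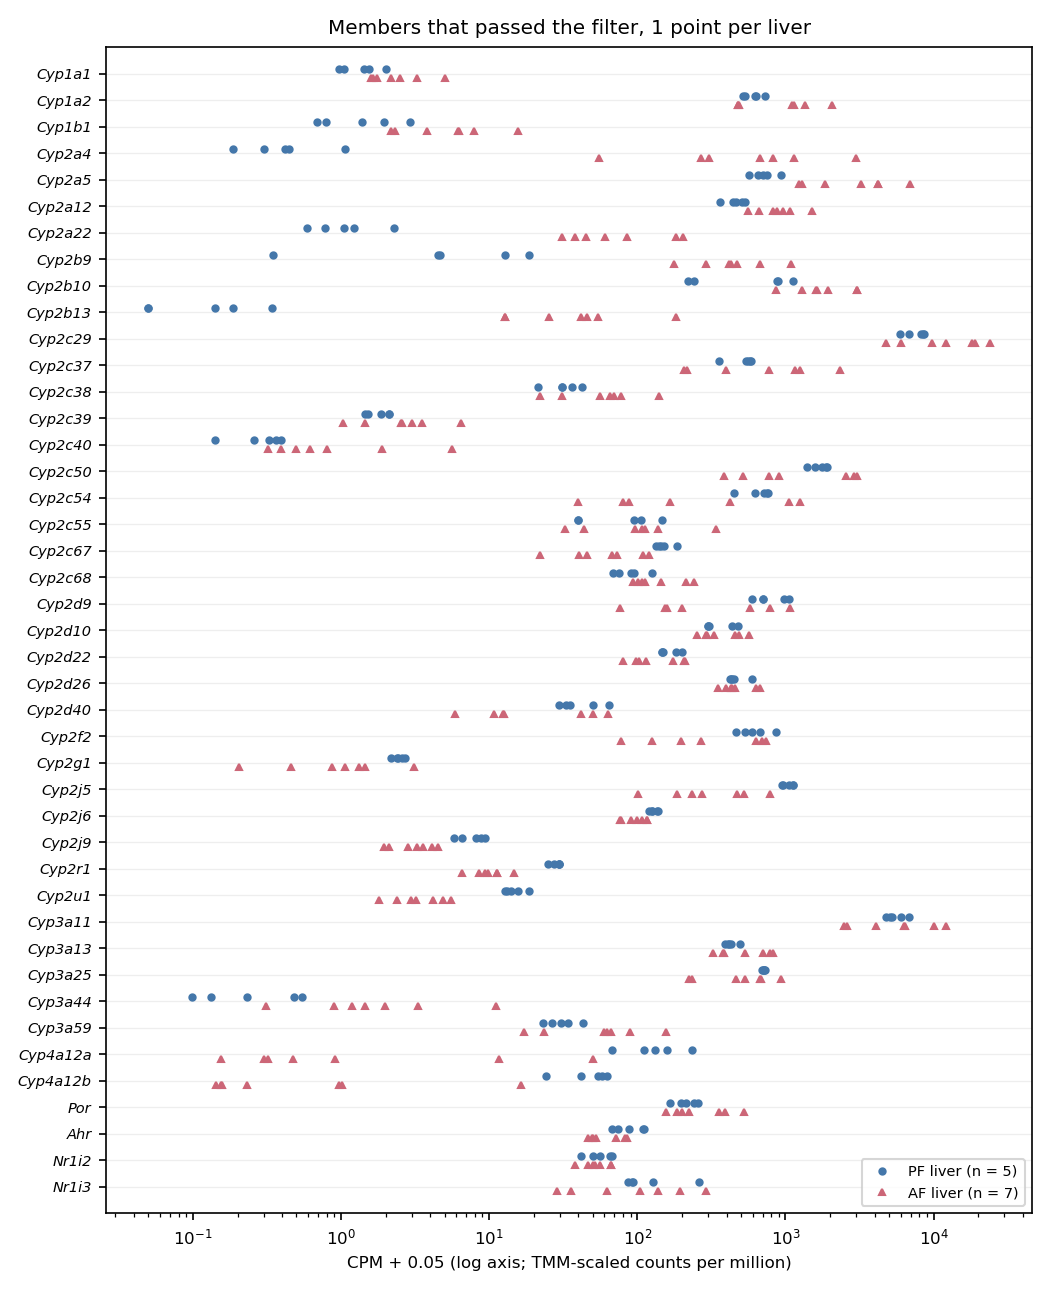
CPM of each tested member in each liver, plotted as CPM + 0.05 on a log axis, with circles for the 5 PF and triangles for the 7 AF livers. The triangles of Cyp2a4, Cyp2a22, Cyp2b9 and Cyp2b13 sit far to the right of the circles, those of Cyp4a12a and Cyp4a12b to the left, and the triangles of most genes spread more widely than the circles.

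**Figure D2:**
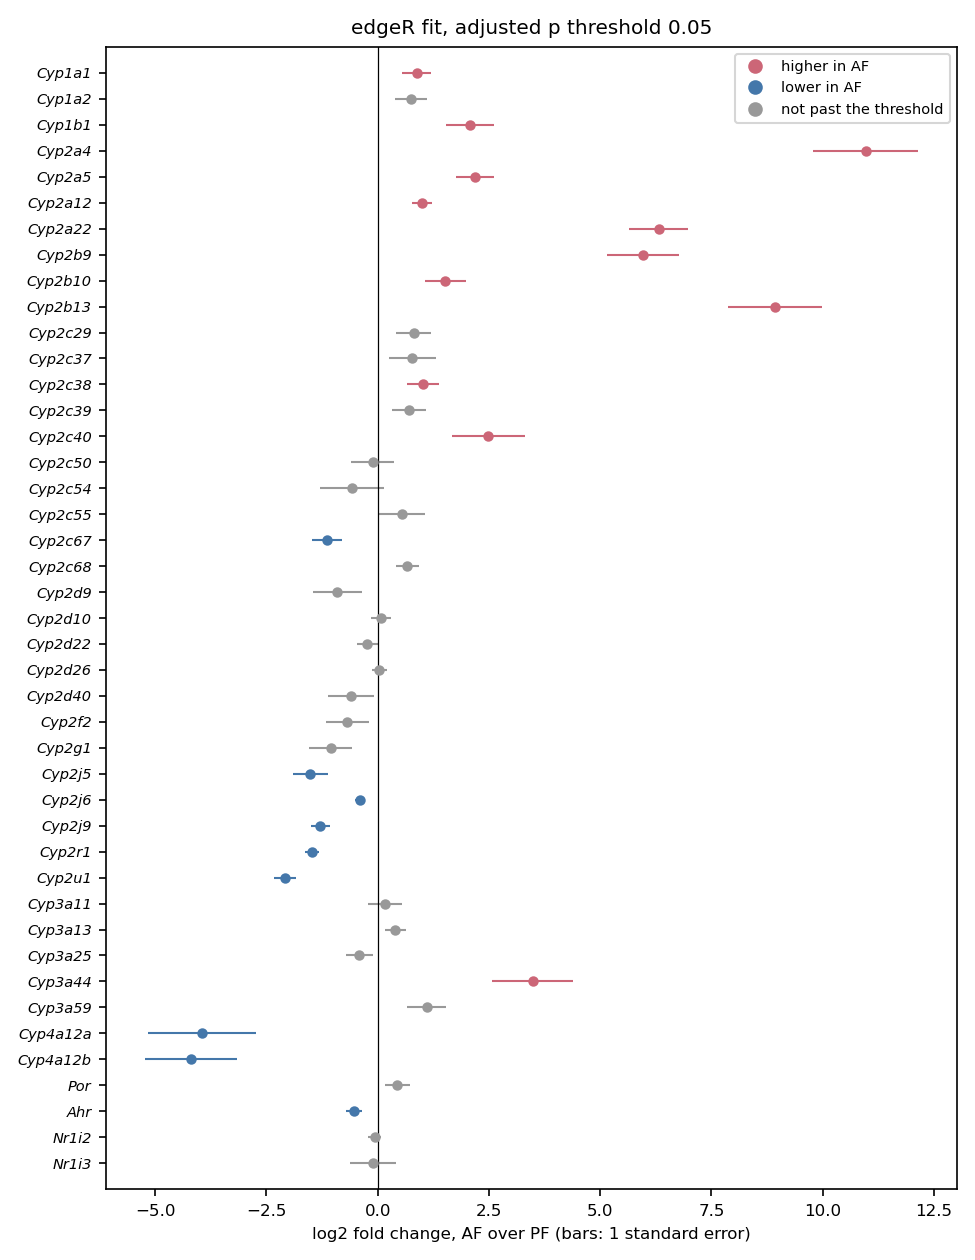
The log2 fold change of AF over PF for the 43 tested members from the edgeR fit, with bars of 1 standard error and colour by the adjusted p threshold of 0.05. Values run from -4.20 for Cyp4a12b to 10.97 for Cyp2a4.

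The donor and the receptors came first. Por encodes the NADPH-dependent reductase that hands electrons to every microsomal P450. Its level was 196, 256, 212, 243 and 166 CPM in PF replicates 1 to 5, and in AF livers ran from 155 CPM through a median of 223 to 524 CPM. The groups overlapped, and the log2 fold change of 0.44 ± 0.28 (SE) did not pass the threshold (adjusted p = 0.232).

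Ahr, the receptor that turns on the Cyp1 genes, stood at 67.9, 73.8, 87.4, 111 and 109.7 CPM in PF livers. AF livers had 46.1 CPM at the lowest, 52.7 at the median and 84.5 at the highest, and 4 of 7 lay below every PF liver. Ahr was lower in AF by this test, with a log2 fold change of -0.53 ± 0.19 (adjusted p = 0.0398). This call did not hold in 11 of 21 alternative settings, and without PF replicates 3, 4 and 5 the value was -0.19 (adjusted p = 0.623).

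Nr1i2 encodes PXR, the sensor that drives Cyp3a genes. PF livers had 41.4, 65.7, 56.1, 67.2 and 50 CPM and AF livers 37.8 to 66.3 CPM with a median of 51.6. The groups covered nearly the same range (log2 fold change -0.07 ± 0.15, adjusted p = 0.748).

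Nr1i3 encodes CAR, the sensor that drives Cyp2b10. It was measured at 91.5, 259.8, 128, 93.4 and 86.8 CPM in PF livers, of which replicate 2 stood apart, and at 28.5 to 292 CPM in AF livers with a median of 104. Its log2 fold change was -0.11 ± 0.52 (adjusted p = 0.88), and AF livers spread 10.2-fold from lowest to highest. Exons of Tomm40l on the opposite strand cover 74.9% of the exon bases of Nr1i3. Since the strand setting of the counting is not given in the sources used here, reads of these 2 genes may be mixed.

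Family 1 holds the classical AHR targets, which oxidize planar aromatic compounds. Cyp1a1, nearly silent in liver without an inducer, had 1.38, 0.915, 1.5, 1.97 and 0.995 CPM in PF livers. AF livers ranged from 1.53 through a median of 2.11 to 4.96 CPM, and 4 of 7 lay above all PF livers. It was higher in AF by 0.88 ± 0.33 on the log2 scale (adjusted p = 0.0468), a call that was lost in 13 of 21 alternative settings.

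Cyp1a2, the abundant liver form that oxidizes caffeine, had 637, 732, 515, 623 and 531 CPM in PF livers. AF livers split around this range, with replicates 1, 3 and 4 at 489, 481 and 479 CPM and the others between 1114 and 2069 CPM. The median was 1114 CPM and the log2 fold change 0.75 ± 0.36 (adjusted p = 0.112).

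Cyp1b1 is known mainly from cells other than hepatocytes, stellate cells among them. PF livers had 0.738, 0.641, 1.33, 1.89 and 2.85 CPM. AF livers had 2.12 CPM at the lowest, 6.1 at the median and 15.7 at the highest, and 5 of 7 were above every PF liver. Cyp1b1 was thus higher by 2.07 ± 0.54 on the log2 scale (adjusted p = 0.00907). Without PF replicates 3, 4 and 5 Cyp1b1 had 3.18 (adjusted p = 0.0345). Stellate cell markers moved with it, from 37.6 to 92.5 CPM in PF to 80.9 to 489 CPM in AF livers. Replicate 1 was highest and replicate 6 lowest of the AF livers in both, as also in the bile duct and recruited macrophage markers. The match is thus not particular to stellate cell markers, and the part of any of these markers in the result was not tested.

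All 4 Cyp2a genes rose, with log2 fold changes from 1.00 to 10.97. Cyp2a4, a steroid hydroxylase made mainly in female liver, was close to absent in PF mice, with 0.394, 0.366, 0.25, 1.02 and 0.136 CPM or 51 counts in all. In AF livers it ran from 54.8 CPM in replicate 2 through a median of 672 to 3008 CPM in replicate 5. Every AF liver was thus far above every PF liver, and the log2 fold change was 10.97 ± 1.18 (adjusted p = 3.5e-05). Without AF replicate 5 it was 10.25, and without PF replicate 4 it was 11.59.

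Cyp2a5 oxidizes coumarin and nicotine and was already abundant in PF livers, at 709.5, 929, 648, 756 and 564 CPM. AF livers had 1241 to 6967 CPM with a median of 3250, all above the PF range. It rose by 2.19 ± 0.43 on the log2 scale (adjusted p = 0.00181), and the value was 2.00 (adjusted p = 0.08) without PF replicates 3, 4 and 5.

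The remaining pair of the subfamily showed the same arrangement of an abundant and a scarce gene. Cyp2a12 had 461 ± 65.1 CPM in PF (SD, n = 5) and 924 ± 307 CPM in AF livers (SD, n = 7), or 1.00 on the log2 scale (adjusted p = 0.00369). Cyp2a22 had 1.13 ± 0.65 CPM in PF (SD, n = 5) and 92 ± 71.2 CPM in AF livers (SD, n = 7), or 6.32 on the log2 scale (adjusted p = 2.89e-05). All AF livers lay above all PF livers in both genes. Without PF replicates 3, 4 and 5 Cyp2a12 had 1.04 (adjusted p = 0.0784).

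Sequences close to the start of Cyp2a4 and Cyp2a5 are shown because the 2 genes are nearly alike there and yet differed widely in level and in fold change. The windows cover 250 bases before to 50 after the start site, on the forward strand of GRCm38.p6 as given by RefSeq, at chr7:26306942-26307241 for Cyp2a4 and chr7:26835089-26835388 for Cyp2a5. Capitals mark bases that have no identical partner in the alignment of the pair, and 294 of 300 bases (98%) were identical.
Cyp2a4: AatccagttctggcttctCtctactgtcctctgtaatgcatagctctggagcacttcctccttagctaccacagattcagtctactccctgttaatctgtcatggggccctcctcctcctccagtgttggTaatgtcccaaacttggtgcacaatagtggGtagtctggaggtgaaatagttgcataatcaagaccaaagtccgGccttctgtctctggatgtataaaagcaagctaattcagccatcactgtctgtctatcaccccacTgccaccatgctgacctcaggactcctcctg
Cyp2a5: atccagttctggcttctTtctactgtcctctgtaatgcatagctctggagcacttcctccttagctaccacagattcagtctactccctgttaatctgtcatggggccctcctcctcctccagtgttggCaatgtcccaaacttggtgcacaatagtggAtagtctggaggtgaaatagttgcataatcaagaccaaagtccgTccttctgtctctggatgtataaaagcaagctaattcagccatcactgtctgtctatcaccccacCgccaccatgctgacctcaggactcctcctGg
Both windows hold the letters TATAAA. In Cyp2a12 and Cyp2a22 the windows were identical at 262 of 300 bases (87.3%).

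Counts of near copies could have been mixed by the counting, so the relation of each pair was compared liver by liver. Of the 50-base stretches of Cyp2a4 transcripts, 38% occur in another gene, chiefly Cyp2a5. Counts of Cyp2a4 came to 0.0241 to 0.135% of those of Cyp2a5 in PF livers and to 1.69 to 91.8% in AF livers. Across the AF livers this percentage was 91.8, 44.3, 52 and 71.3% in replicates 1, 3, 4 and 5 and 1.69, 4.4 and 6.33% in replicates 2, 6 and 7. Cyp2a22 counts came to 0.138 to 0.477% of those of Cyp2a12 in PF and to 4.53 to 20.8% in AF livers, with 20.2% of its stretches shared.

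**Figure D3:**
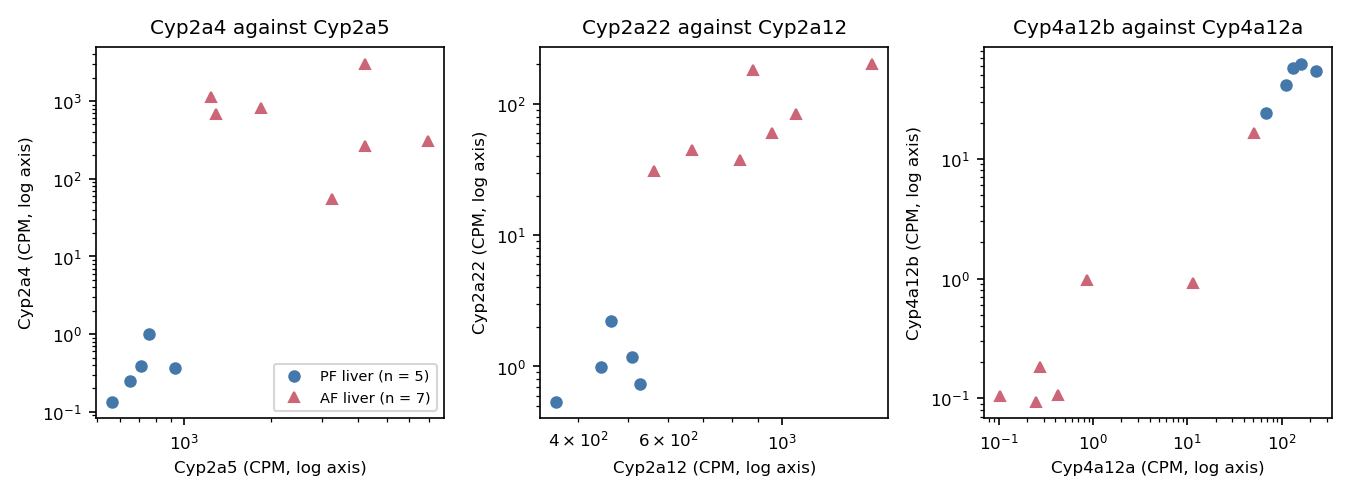
CPM of 3 pairs of near-identical genes in each liver on log axes, with circles for the 5 PF and triangles for the 7 AF livers. The AF liver with the most Cyp2a5 (replicate 6, 6967 CPM) is not the one with the most Cyp2a4 (replicate 5, 3008 CPM), and in the third panel the AF livers fall away from the PF livers in both Cyp4a12 genes.

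Each Cyp2b gene was higher in AF. Cyp2b10 is the phenobarbital-inducible form and the usual readout of CAR. PF livers fell into 221 and 239.5 CPM in replicates 1 and 2 and 877, 1125 and 885 CPM in replicates 3, 4 and 5. AF livers ran from 868 CPM through a median of 1631 to 3048 CPM, and 6 of 7 were above every PF liver. Its log2 fold change was 1.52 ± 0.46 (adjusted p = 0.0181), and 3.05 (adjusted p = 0.00912) without PF replicates 3, 4 and 5. With a block for the replicate number it was 1.49 and did not pass (adjusted p = 0.0661).

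Cyp2b9 and Cyp2b13 are female-predominant forms. Cyp2b13 had 0, 0.137, 0.292, 0 and 0.0905 CPM in PF livers, 12 counts in all, and 12.7 to 183 CPM in AF livers with a median of 41.4. The groups were widely separate (log2 fold change 8.93 ± 1.05, adjusted p = 6.63e-05). This value was 9.79 without PF replicate 3 and 8.18 without AF replicate 7, the highest liver. Cyp2b9 had 8.1 ± 7.32 CPM in PF (SD, n = 5) and 506 ± 299.7 CPM in AF livers (SD, n = 7), higher by 5.96 on the log2 scale (adjusted p = 0.000186). Gm45225 is the gene that shares most with Cyp2b13, of whose 50-base stretches 27.3% occur elsewhere.

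The promoter windows of Cyp2b9 and Cyp2b13 are printed because these genes rose together from low levels. They lie at chr7:26173159-26173458 and chr7:26061245-26061544 on the forward strand of GRCm38.p6 (RefSeq) and were identical at 298 of 300 bases (99.3%), with the differing bases in capitals.
Cyp2b9: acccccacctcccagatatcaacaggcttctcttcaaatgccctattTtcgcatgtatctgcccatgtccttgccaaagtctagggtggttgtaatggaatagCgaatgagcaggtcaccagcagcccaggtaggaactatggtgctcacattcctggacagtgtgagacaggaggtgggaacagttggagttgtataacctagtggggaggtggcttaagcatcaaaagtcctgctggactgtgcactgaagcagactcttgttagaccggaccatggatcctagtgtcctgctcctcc
Cyp2b13: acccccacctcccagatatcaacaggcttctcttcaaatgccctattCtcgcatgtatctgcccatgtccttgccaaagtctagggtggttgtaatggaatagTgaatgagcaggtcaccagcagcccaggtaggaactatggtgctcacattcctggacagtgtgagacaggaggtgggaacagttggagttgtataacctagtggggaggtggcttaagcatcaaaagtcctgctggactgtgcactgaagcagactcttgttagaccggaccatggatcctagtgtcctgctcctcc
Cyp2b10 shared 223 of 300 bases (74.3%) with each of them. Cyp2b13 counts came to 0 to 2.04% of those of Cyp2b9 in PF and to 4.41 to 16.7% in AF livers.

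Among the Cyp2c genes, which epoxidize arachidonic and linoleic acid besides oxidizing drugs, 2 of 10 tested were higher (20%) and 1 lower (10%), neither share above the 22.0% and 17.8% of all genes, and the most abundant ones did not pass the threshold. Cyp2c29 held the highest level of the members, also per exon length (2489 in PF and 4378 in AF livers, CPM per kilobase). PF livers had 5972, 6768, 8665, 8242 and 8448 CPM, and AF livers had 4803 CPM at the lowest, 12212 at the median and 23991 at the highest. AF replicates 2, 6 and 7 held 18062 to 23991 CPM and replicate 1 lay below all PF livers. With a log2 fold change of 0.81 ± 0.39 it did not pass (adjusted p = 0.108). It did pass with DESeq2 (adjusted p = 0.0468), on library totals (adjusted p = 0.00939) and without AF replicate 1 (adjusted p = 0.0404).

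Cyp2c40, a female-predominant form, had 0.344, 0.275, 0.208, 0.315 and 0.0905 CPM in PF livers and 0.269 to 5.52 CPM in AF livers, with a median of 0.57. The groups overlapped at this low level and the log2 fold change was 2.48 ± 0.82 (adjusted p = 0.0287). Without AF replicate 7 it was 1.52 (adjusted p = 0.0401), and 7 of 21 alternatives lost the call. With 60.3% of its 50-base stretches also in other genes, chiefly Cyp2c69, its counts are uncertain. Cyp2c69 itself had 10 counts in PF and 85 in AF livers and was not tested.

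Cyp2c38 was higher with a log2 fold change of 1.02 (adjusted p = 0.041), lost in 11 of 21 alternatives. The only lower gene of the subfamily was Cyp2c67, which had 151 ± 20.5 CPM in PF (SD, n = 5) and 68.2 ± 36.1 CPM in AF livers (SD, n = 7) with no overlap (log2 fold change -1.14, adjusted p = 0.0149). Without PF replicates 3, 4 and 5 this was -1.28 (adjusted p = 0.0936). Its neighbour Cyp2c68 had 91.1 ± 22.5 CPM in PF (SD, n = 5) and 145 ± 59.2 CPM in AF livers (SD, n = 7) and missed the threshold (log2 fold change 0.67, adjusted p = 0.0537), though it passed in 8 of 21 alternatives. Counts of both are uncertain, with 52.8% of the stretches of Cyp2c67 and 43.3% of those of Cyp2c68 also in other genes, chiefly Cyp2c40. Cyp2c67 counts were 147 to 196% of those of Cyp2c68 in PF and 20.3 to 109% in AF livers.

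Cyp2c37 (0.78), Cyp2c39 (0.71), Cyp2c50 (-0.11), Cyp2c54 (-0.58) and Cyp2c55 (0.54) had log2 fold changes that did not pass. Without PF replicates 3, 4 and 5 Cyp2c55 had 1.64 (adjusted p = 0.161). With limma-voom and sample quality weights Cyp2c54 was called lower (-1.88, adjusted p = 0.034) and Cyp2c37 stood at -0.03. Cyp2c54 varied 31.5-fold among AF livers. Replicates 2, 6 and 7 had 1244, 1052 and 420.1 CPM, beside 446 to 758 CPM in PF livers, and replicates 1, 3, 4 and 5 had 39.5, 87.2, 80.1 and 166 CPM.

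In the 5 tested Cyp2d genes, whose enzymes oxidize many basic drugs, the edgeR fit with TMM made 0 calls. None had an unadjusted p below 0.05 either, DESeq2 and limma-voom also called 0, and limma-voom with sample quality weights called Cyp2d9 and Cyp2d40 lower. On library totals without scaling factors edgeR called Cyp2d10 (0.38, adjusted p = 0.0439) and Cyp2d26 (0.37, adjusted p = 0.0166) higher, where the median of all genes was also shifted to 0.398. Cyp2d9, a male-predominant testosterone hydroxylase, had 1056, 980, 598, 709.7 and 709 CPM in PF livers. AF livers ran from 76.7 CPM through a median of 199 to 1069 CPM, and 5 of 7 lay below every PF liver. On the log2 scale the difference was -0.91 ± 0.55 (adjusted p = 0.201).

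Values of Cyp2d10 (0.07), Cyp2d22 (-0.23), Cyp2d26 (0.04) and Cyp2d40 (-0.60) were smaller still on the log2 scale. Among the tested Cyp2d genes, Cyp2d26 had the least spread over AF livers, at 424 to 597 CPM in PF and 352 to 673 CPM in AF livers. Cyp2d11 (24 counts in PF and 34 in AF), Cyp2d12 (54 and 50) and Cyp2d34 (4 and 10) had too few counts to test.

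In the Cyp2f, Cyp2g, Cyp2j, Cyp2r and Cyp2u subfamilies, 5 of 7 tested genes were called and the 5 were lower, beside 17.8% of all genes that were lower. Cyp2j5 epoxidizes arachidonic acid and had 948, 1056, 1121, 965 and 1129 CPM in PF livers. In AF livers it had 101 CPM at the lowest, 271 at the median and 783 at the highest. No liver overlapped, and the log2 fold change was -1.51 ± 0.39 (adjusted p = 0.00899). Cyp2j6 (-0.40, adjusted p = 0.0179) and Cyp2j9 (-1.29, adjusted p = 0.00076) were lower too, likewise without overlap. On library totals without scaling factors Cyp2j6 had -0.06 (adjusted p = 0.562). Without PF replicates 3, 4 and 5 the calls of Cyp2j5 (adjusted p = 0.104) and Cyp2j6 (adjusted p = 0.127) were lost.

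Cyp2r1 hydroxylates vitamin D in the liver. PF livers stood within a narrow band of 24.9, 27.3, 29.7, 29.5 and 29.7 CPM, and AF livers between 6.45 and 14.6 CPM with a median of 9.82. No AF liver reached the PF range (log2 fold change -1.47 ± 0.16, adjusted p = 3.43e-05).

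Cyp2u1, a fatty acid hydroxylase, had 18.5, 15.7, 13.9, 13.1 and 12.8 CPM in PF livers. AF livers had 1.76 to 5.5 CPM with a median of 3.13, again below every PF liver. It fell by 2.08 on the log2 scale (SE 0.24, adjusted p = 6.33e-05).

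Cyp2f2 bioactivates naphthalene and is best known from lung. It had 670.1, 866, 461, 597 and 531 CPM in PF livers and 77.5 to 735 CPM in AF livers with a median of 268. AF replicates 2, 6 and 7 lay inside the PF range and the others below it, and the log2 fold change of -0.68 ± 0.49 did not pass (adjusted p = 0.281).

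Cyp2g1, an olfactory form that is scarce in liver, had 2.66, 2.52, 2.38, 2.32 and 2.13 CPM in PF livers. AF livers had 0.156 to 3.04 CPM with a median of 1.02, and 6 of 7 were below every PF liver. Its log2 fold change was -1.06 ± 0.49 (adjusted p = 0.0973), and without AF replicate 2, the highest, it was -1.53 (adjusted p = 0.0128). On all livers limma-voom also called it lower, at -1.57 (adjusted p = 0.0259), and at -1.59 with sample quality weights (adjusted p = 0.00663). Cyp2s1 had 15 counts in PF and 92 in AF livers and was not tested.

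The Cyp3a genes, which oxidize a large share of drugs as well as steroids and bile acids, summed to overlapping levels of 5929 to 8033 CPM in PF and 3067 to 13521 CPM in AF livers. Cyp3a11 is the main form in male liver and was the second most abundant member in PF livers per exon length (1099 CPM per kilobase). PF livers had 5277, 5097, 4781, 5982 and 6858 CPM, and AF livers ran from 2494 CPM through a median of 6306 to 12047 CPM. AF livers lay on both sides of PF, 2 above and 3 below all of them, with a log2 fold change of 0.17 ± 0.38 (adjusted p = 0.749).

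Cyp3a44, a female-predominant form, had 0.0492, 0.183, 0.0833, 0.433 and 0.498 CPM in PF livers. AF livers had 0.261 CPM at the lowest, 1.41 at the median and 11.1 at the highest, and 6 of 7 were above every PF liver. It was the only Cyp3a gene that was called, with a log2 fold change of 3.48 ± 0.91 (adjusted p = 0.00943), which was 2.53 without AF replicate 5. Without PF replicates 3, 4 and 5 it was 4.54 (adjusted p = 0.0823).

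Cyp3a13 (0.40), Cyp3a25 (-0.41) and Cyp3a59 (1.10) had log2 fold changes that did not pass, that of Cyp3a59 at an adjusted p of 0.0609, with 4 of 21 alternatives past the threshold. Cyp3a25 was the steadiest member in PF livers, at 698 to 725 CPM, and ran from 222 to 928 CPM in AF livers. Cyp3a16 had 7 counts in PF and 46 in AF livers, Cyp3a41a 4 and 15, and Cyp3a41b 0 and 1. The last pair share 98.6% and 93.5% of their 50-base stretches with other genes, mainly with each other, so reads from them may not have been counted.

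Cyp4a12a and Cyp4a12b, male-predominant hydroxylases of arachidonic acid, showed the largest decreases. Cyp4a12a had 110.2, 67.5, 232, 159 and 132 CPM in PF livers. In AF livers it ranged from 0.104 CPM through a median of 0.422 to 50.5 CPM. Replicates 6 and 2 held 50.5 and 11.6 CPM and the other 5 livers under 1 CPM, all below the PF range. It was lower with a log2 fold change of -3.95 ± 1.21 (adjusted p = 0.0203), and -6.03 (adjusted p = 0.000663) without AF replicate 6. With all livers kept, limma-voom gave -7.06 (adjusted p = 0.000229), so the size of the decrease depends on the tool.

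Cyp4a12b had 41.4, 24.2, 54.1, 62.2 and 57.6 CPM in PF livers and 0.0938 to 16.4 CPM in AF livers, with a median of 0.182. Every AF liver lay below every PF liver, and replicate 6 again stood apart from the rest. The log2 fold change was -4.20 ± 1.03 (adjusted p = 0.00674), -6.94 (adjusted p = 3.95e-06) without AF replicate 6, and -6.71 (adjusted p = 9.66e-05) with limma-voom on all livers. Without PF replicates 3, 4 and 5 the values were -3.30 (adjusted p = 0.167) for Cyp4a12a and -3.64 (adjusted p = 0.101) for Cyp4a12b. Of their 50-base stretches, 48.9% in Cyp4a12a and 49.4% in Cyp4a12b occur elsewhere, mostly in each other.

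By known sex dependence, 5 of the 9 listed female-predominant members could be tested and each of the 5 was higher in AF, namely Cyp2a4, Cyp2b9, Cyp2b13, Cyp2c40 and Cyp3a44, beside 22.0% of all genes. Apart from Cyp2b9, which had 0.295 CPM in PF replicate 1 and up to 18.4 CPM in the others, these had at most 1.02 CPM in any PF liver. All 5 needed their AF values to pass the filter, so the count is no support for a direction of the list. The other 4 had at most 85 counts in a group. Of the 3 male-predominant members, Cyp4a12a and Cyp4a12b fell and Cyp2d9 did not pass, beside 17.8% of all genes that were lower.

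Summed over all P450 members, PF livers lay between 20958 and 25961 CPM. AF livers covered a wider range on either side, from 14914 CPM in replicate 1 and 15845 in replicate 4 over 26474 in replicate 3 and 33625 in replicate 5 to 48607, 49346 and 57876 CPM in replicates 6, 2 and 7. Cyp2c genes gave the most in every liver, with 8483 to 12244 CPM in PF and 5622 to 29889.9 CPM in AF livers. Cyp2a genes summed to 1009 to 1459 CPM in PF and 2557 to 8933 CPM in AF livers, and Cyp2j genes to 1090.2 to 1275 and 180 to 904 CPM, without overlap in either case. As a mean share of the P450 counts, Cyp2a5 went from 3.04% to 9.17%, Cyp2a4 from 0.0018% to 3.59% and Cyp2j5 from 4.36% to 1.02%. A share also moves with the level of the other members.

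**Figure D4:**
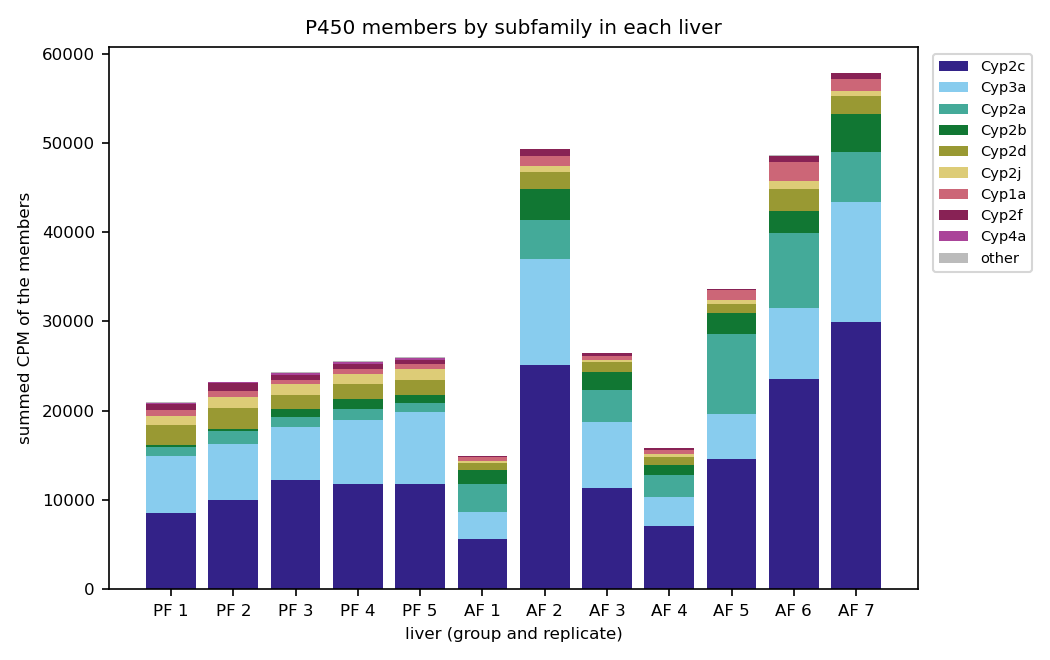
Summed CPM of the P450 members in each of the 12 livers, stacked by subfamily from 0. PF bars are of similar height (20958 to 25961 CPM), while AF bars run from 14914 to 57876 CPM and hold a larger Cyp2a and Cyp2b portion.

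The AF livers also differed from each other in a repeated order, which is described here without a test because it was noticed in the values. Replicate 1 had the lowest AF value in 27 of the 43 tested members and replicate 4 in 10, whereas replicate 7 had the highest in 16, replicate 6 in 11 and replicate 2 in 10. In Cyp2d9, Cyp2d40, Cyp2f2 and Cyp2c54, replicates 2, 6 and 7 held the 3 highest AF values. In Cyp2a4 the same replicates held the 3 lowest, 54.8, 306 and 267 CPM, beside 672 to 3008 CPM in the rest. Bile duct markers summed to 8.81, 4.95 and 5.42 CPM in replicates 2, 6 and 7, and to 41.5, 13.2, 14.5 and 24.8 CPM in replicates 1, 3, 4 and 5, beside 3.16 to 4.96 CPM in PF livers. Recruited macrophage markers, of which 1 of 5 was higher in AF, summed to 309.8, 111 and 124 CPM in replicates 2, 6 and 7, and to 1439.6, 538, 697 and 774 CPM in replicates 1, 3, 4 and 5, beside 54.5 to 268 CPM in PF livers. Hepatocyte markers divided along the same line, with 87138, 113871 and 116340.4 CPM in replicates 2, 6 and 7 and 63738 to 84167 CPM in the rest, beside 104300.3 to 148316 CPM in PF livers. The stellate, Kupffer and neutrophil lists did not. Stellate cell markers had 442, 80.9 and 154 CPM in replicates 2, 6 and 7 and 240.5 to 489 CPM in the rest, Kupffer cell markers had 1110.3 to 1602 CPM beside 776 to 2376 CPM, and neutrophil markers had 82 to 106 CPM beside 26.6 to 154 CPM. Whether these marker differences have a part in the order of the P450 values was not tested.

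PF livers differed less, but replicates 1 and 2 stood apart from replicates 3, 4 and 5 in several members. Besides Cyp2b10, Cyp2c55 had 39.5 and 40 CPM against 94.5, 106 and 147 CPM, and Cyp2d10 had 437 and 481 CPM against 299, 299.7 and 305 CPM. Column names carry a number per mouse whose meaning is not given in the sources used here. In PF replicates 3, 4 and 5 it lies far from the numbers of all other livers, and its part in these differences was not tested. Without PF replicates 3, 4 and 5, 6 of 47 tested members (12.8%) were higher and 3 (6.38%) lower in AF, beside 8.45% and 6.9% of the 15003 genes tested in that fit.

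Most partners of the P450 enzymes did not pass the threshold. Of 14 genes for electron transfer and heme supply, all tested, 1 was higher (7.14%) and 4 were lower (28.6%), beside 22.0% and 17.8% of all genes. Hmox1, which degrades heme, had 40.4 ± 5.1 CPM in PF (SD, n = 5) and 122 ± 85.9 CPM in AF livers (SD, n = 7) and was the higher one. Cyb5b, a cytochrome b5 of the outer mitochondrial membrane, fell to 299 ± 69 CPM (SD) from 729 ± 85.1 CPM (log2 fold change -1.29, adjusted p = 0.000126). Cyb5r3, its reductase (-0.42), and Fech, which inserts iron into heme (-0.44), fell too, and Alas1, the first enzyme of heme synthesis, had a log2 fold change of -0.32 (adjusted p = 0.571).

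Among 17 tested partners and chaperones of the receptors, 3 (17.6%) were lower and the rest did not pass, and the share lower is near the 17.8% of all genes. The 3 were the coactivators Ncoa2 (-0.36) and Ppargc1a (-1.89) and the corepressor Nr0b2 (-0.89). Arnt, the dimer partner of AHR, had 0.01 and Rxra, the partner of PXR and CAR, -0.22, neither past the threshold.

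Other targets of the receptors went in both directions. Of 7 tested targets of AHR, 4 were higher and 1 lower, beside 22.0% and 17.8% of all genes. Of the 4, Gsta1 had at most 0.769 CPM in PF livers and passed the filter through its AF values. Its call is thus no support for a direction of the list. Nqo1, a quinone reductase, had 10.2 ± 2.24 CPM in PF (SD, n = 5) and 63.7 ± 24.1 CPM in AF livers (SD, n = 7), Gsta1 had a log2 fold change of 6.94 and Nfe2l2 of 0.60, while Ugt1a6a had -0.86. Of 22 targets of CAR and PXR, 10 were higher (45.5%) and 2 lower (9.09%), beside the same background. Among the 10, Akr1b7 had 0.183 to 1.18 CPM in PF livers and likewise passed the filter through its AF values. Gstm1 (1.90) and Gstm3 (3.88), which conjugate glutathione, rose, and the sulfotransferase Sult2a8 (-4.40) and Aldh1a7 (-0.73) fell.

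Of 23 tested liver factors known to act on P450 genes, 12 were lower, 1 (Nfe2l2) was higher and 10 did not pass, beside the 17.8% of all genes that were lower and 22.0% that were higher. The growth hormone receptor Ghr had 763 ± 44.4 CPM in PF (SD, n = 5) and 239 ± 109 CPM in AF livers (SD, n = 7), Igf1 had a log2 fold change of -0.79 and Tef, a clock-controlled factor, of -0.96. Hnf4a had -0.23 (adjusted p = 0.401).

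Among 26 tested P450 genes outside the list, 6 were higher (23.1%) and 7 lower (26.9%), beside 22.0% and 17.8% of all genes. Cyp4a10, a fatty acid hydroxylase, had a log2 fold change of 3.31 and Cyp39a1 of 1.25, and the sterol hydroxylase Cyp27a1 had -1.10 and Cyp2c23 -0.97. Cyp2e1, the ethanol-oxidizing family 2 gene that is not a member, had 9182 to 12604 CPM in PF and 472 to 7236 CPM in AF livers. Its groups did not overlap, yet with a log2 fold change of -1.62 and an adjusted p of 0.05 after rounding it did not pass.

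In 44 promoter windows of 42 members, TATAAA was found in 24 (54.5%), beside 13.6% of all 32851 windows of the same length, with both strands searched. GCGTG, the core letters bound by AHR with its partner, was in 7 (15.9%) beside 32.4%. The 7 were those of Cyp1a1, Cyp1b1, Cyp2b10, Cyp2c68, Cyp2j9, Cyp2r1 and Por. AGTTCA, letters read by nuclear receptors, was in 7 (15.9%) beside 14%, and CCAAT in 19 (43.2%) beside 37.4%. TTCNNNGAA, read by STAT5, and TTATGTAA, read by the clock-controlled PAR factors, were in 0 windows, beside 8.3% and 0.938%. Some windows are near copies, such as the 2 of Cyp3a25, which both hold CCAAT, and those of Cyp3a41a and Cyp3a41b (98.3% identical). The member shares thus count some sequence more than once. No motif of the 6 contains another, and a match says only that the letters are there.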

How the data were processed

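Liver RNA was extracted with TRIzol, enriched with oligo(dT) and made into TruSeq stranded libraries, 1 per mouse. Per the labels and methods, the authors checked reads with FastQC 0.10.1, did not trim and aligned to mm10 (GRCm38) with TopHat2 2.0.13. Counts in the deposited table come from HTSeq 0.10.0, while the methods of the paper name Cuffnorm with FPKM normalization for read counts. The table the authors deposited holds raw counts for each Ensembl gene, and the annotation and strand setting are not given in the sources used here. All 12 columns were used and 54165 IDs were named by GENCODE M21.

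Counts were scaled with TMM, filtered with filterByExpr by group and tested with edgeR 4.0.16 (R 4.3.3) quasi-likelihood, comparing AF with PF with no covariate, and adjusted by Benjamini-Hochberg over 14168 genes at 0.05. Standard errors come from the F statistic. The fit was tested on simulated data. Alternatives were DESeq2 1.42.0, limma 3.58.1 (voom), other scalings and filters, a block for the replicate number, fits without each library, and, chosen after seeing the data, PF replicates 3, 4 and 5 left out. The members, lists and markers were chosen with earlier results of these data known. Each subfamily's member with the highest mean CPM and that with the largest log2 fold change, Por and the receptors are described in full, others by fold or range, and up to 4 called genes per other list, those of highest mean CPM in each direction, with unchanged genes of interest named after their values were seen. Marker Tf was not a symbol in the annotation. No pair of libraries in a group was alike within counting noise (lowest ratio 21.07). Labels give no litter or cage, so p-values cover the spread between these mice.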

Additional observations from a re-analysis of the deposited data

Results flagged for a closer look

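In 11 of 86 groups of values, the highest or lowest liver was farther from the next than Dixon's 95% limit allows. Chance would give about 4.3 if values were normal and groups independent. The limit was applied to untransformed CPM and the groups share the same livers, so 4.3 is only a rough guide. Among AF livers these were replicate 1 in Cyp1b1 (15.7 CPM, next 7.9), replicate 2 in Cyp2c55 (339.8, next 138), replicate 5 in Cyp2a4 (3008, next 1139) and Cyp3a44 (11.1, next 3.24), replicate 6 in Cyp4a12a (50.5, next 11.6) and Cyp4a12b (16.4, next 0.969), and replicate 7 in Cyp2b13 (183, next 53.9) and Cyp2c40 (5.52, next 1.85). Among PF livers they were replicate 1 as the lowest in Cyp2c37 (358 CPM, next 538) and replicate 2 as the highest in Cyp2d26 (597, next 451) and Nr1i3 (259.8, next 128).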

How the results depend on the processing

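Of the 21 called members, 14 passed under every other tool, scaling, filter, block and left-out library, and 8 also without PF replicates 3, 4 and 5 (Cyp1b1, Cyp2a4, Cyp2a22, Cyp2b9, Cyp2b13, Cyp2j9, Cyp2r1 and Cyp2u1), and none of the 21 changed sign. Of the members that did not pass, 8 changed sign in at least 1 alternative. Leaving out those 3 PF livers gave 1268 genes higher, 1035 lower, 6 members higher and 3 lower. On library totals without factors, where the median log2 fold change of all genes was 0.398 rather than 0.039, 6458 genes were higher, 938 lower, 21 members higher and 7 lower, so that 87.3% of calls were higher rather than 55.3%. The replicate numbers did not pair the livers (correlations of deviations from -0.0749 to 0.117, with 1 of 5 numbers best matched to itself). AF replicates 6 and 7 have no PF liver of the same number, so the block leaves these 2 livers out of the estimate. Its results thus differ from the main fit in the livers used as well as in the block. The replicate block gave 3395 genes higher and 2940 lower, and 9 members higher and 15 lower. Cyp2b10 was not called with the block (1.49, adjusted p = 0.0661), and of the Cyp2d genes Cyp2d9, Cyp2d22 and Cyp2d40 were called lower, as were Cyp2c54 (-2.37, adjusted p = 0.0227), Cyp2f2 and Nr1i3, and Cyp2c37 stood at -0.23. Leaving out each library in turn gave 10 to 15 members higher, 8 to 10 lower, 2519 to 3574 genes higher and 2119 to 2923 lower. limma-voom gave 8 members higher and 10 lower, with Cyp1a1, Cyp2c38, Cyp2c40 and Cyp3a44 no longer called. The Cyp4a12 folds moved most, to -7.73 (Cyp4a12a) and -7.53 (Cyp4a12b) with quality weights and -7.37 and -6.81 with the block. The other tools, scalings and filter gave 11 to 15 higher and 8 to 13 lower, and the causes were not tested. The 8 untested members and the PF values of Cyp2b13 rest on few counts, and the cause was not tested. Shared sequence may have kept reads of some, such as Cyp3a41a and Cyp3a41b, from being counted.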
